A study of Mus musculus with 14 samples.

Results

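The nuclear genes for the subunits of mitochondrial complexes II, III, IV and V, together with cytochrome c, were followed across 14 brain libraries. Members were the genes of the count table whose symbols follow the names of these subunits (Sdh, Uqcr, Cyc, Cox and Atp5), with pseudogenes left out, which gave 49 of 43346 genes on 19 chromosomes. There were 4 members in complex II, 9 in complex III, 18 in complex IV and 15 in complex V, beside Cycs, the gene for cytochrome c. The last 2, Atp5s and Atp5sl, carry an Atp5 name and were kept apart from the subunits of each complex. They do count in all totals, medians and means over members.

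RNA was sequenced from a brain section with hippocampus and cortex of female mice of the strain C57BL/6;SJL-Tg at 23 months of age. The groups were 4 non-transgenic littermates (NTG) and 10 APP/PS1 mice, of which 5 received vehicle and 5 received CP2. APP/PS1 mice carry human transgenes for mutated APP and PS1 and were labelled APP/PS1 +/+, and the promoters of the transgenes are not given in the sources used here. CP2 is a tricyclic pyrone that mildly inhibits complex I, and was taken at 25 mg/kg/day with the drinking water, which held 0.1% PEG, from 9 months of age onwards. The other mice were labelled non-treated, and the treatment protocol gives them water with PEG. Mice are named by their library numbers. Numbers 7 to 10 are NTG, 16 to 20 are vehicle-treated and 21 to 25 CP2-treated animals. NTG mice given CP2 do not enter here, so CP2 was compared with vehicle in APP/PS1 mice only.

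Complex II, succinate dehydrogenase, links the citric acid cycle to the respiratory chain and is encoded by nuclear genes alone. Complex III passes electrons from ubiquinol to cytochrome c, complex IV passes them from cytochrome c to oxygen, and complex V uses the proton gradient built by the chain to make ATP. Neurons draw most of their ATP from this pathway, and complexes III, IV and V combine nuclear subunits with a few encoded in mitochondrial DNA. The table listed 37 genes of mitochondrial DNA, all with 0 counts in every library, and their transcripts could not be followed.

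Library size was 70548781 to 106235625 counts, of which the members took 0.591% to 0.761%. Mouse 16 stood apart from the others, with a summed level of 8 striatal markers of 2502 CPM (counts scaled to a common library size, with TMM factors), against at most 372 in any other mouse. Without mouse 16 the members' median log2 fold change was -0.11 in APP/PS1 against NTG mice, with 7 of 45 members lower at an unadjusted p under 0.05 beside 9.43% of all genes. In CP2-treated against vehicle-treated mice it was -0.087 without mouse 16, with 2 of 45 such members beside 5.29% of all genes, so the members' share was not above that of all genes.

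The promoters of 5 members are shown because genes of this pathway are known to share promoter sites for the factors NRF1, SP1, YY1 and the ETS family. Sdhb, Cox8a, Cox6a1 and Atp5g2 had the smallest p-value of their complex in at least 1 comparison, and Uqcrc1 the smallest in complex III after Cyc1, in APP/PS1 against NTG mice. The sequences are from RefSeq (GRCm38.p6), 300 bases each, ending 50 bases past the transcription start and written 5′ to 3′ on the strand of the gene. Capitals mark matches, on either strand, to GCGCNNGCGC (NRF1), CCGGAAG (ETS), GGGCGG (SP1) or AAGATGGC (YY1). None of these motifs contains another, and matches may overlap.
Sdhb, chr4:140961021-140961320, plus strand: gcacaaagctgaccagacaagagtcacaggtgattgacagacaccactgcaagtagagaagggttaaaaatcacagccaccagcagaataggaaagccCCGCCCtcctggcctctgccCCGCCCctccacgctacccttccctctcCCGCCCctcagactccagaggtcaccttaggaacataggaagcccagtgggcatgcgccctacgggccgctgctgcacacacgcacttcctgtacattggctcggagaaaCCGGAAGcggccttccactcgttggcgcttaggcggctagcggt
Uqcrc1, chr9:108936398-108936697, plus strand: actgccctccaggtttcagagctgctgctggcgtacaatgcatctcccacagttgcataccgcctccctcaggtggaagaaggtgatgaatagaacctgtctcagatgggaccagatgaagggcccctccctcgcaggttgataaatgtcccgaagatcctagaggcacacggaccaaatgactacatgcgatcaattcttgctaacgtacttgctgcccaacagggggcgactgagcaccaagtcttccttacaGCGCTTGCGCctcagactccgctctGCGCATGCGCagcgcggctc
Cox8a, chr19:7217567-7217866, minus strand: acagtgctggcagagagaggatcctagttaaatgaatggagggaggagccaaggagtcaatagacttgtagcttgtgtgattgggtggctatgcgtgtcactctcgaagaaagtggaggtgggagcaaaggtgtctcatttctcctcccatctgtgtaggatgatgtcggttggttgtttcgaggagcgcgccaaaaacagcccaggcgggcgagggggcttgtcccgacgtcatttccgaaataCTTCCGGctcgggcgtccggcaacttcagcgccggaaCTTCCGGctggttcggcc
Cox6a1, chr5:115348909-115349208, minus strand: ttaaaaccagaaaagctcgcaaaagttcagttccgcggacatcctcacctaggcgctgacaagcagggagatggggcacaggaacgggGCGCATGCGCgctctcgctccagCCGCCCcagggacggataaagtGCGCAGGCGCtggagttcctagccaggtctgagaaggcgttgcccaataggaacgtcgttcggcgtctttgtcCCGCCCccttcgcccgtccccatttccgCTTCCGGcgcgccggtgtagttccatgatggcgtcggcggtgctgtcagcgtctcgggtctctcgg
Atp5g2, chr15:102670998-102671297, minus strand: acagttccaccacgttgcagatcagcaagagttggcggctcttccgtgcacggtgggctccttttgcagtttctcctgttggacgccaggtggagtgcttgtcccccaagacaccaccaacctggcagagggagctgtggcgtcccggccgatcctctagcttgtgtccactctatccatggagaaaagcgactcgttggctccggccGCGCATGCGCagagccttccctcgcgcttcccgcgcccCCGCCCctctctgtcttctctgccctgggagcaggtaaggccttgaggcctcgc

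The Cox8a window held 2 ETS matches, and the Uqcrc1 window held 2 NRF1 matches. For Sdhb there were 3 SP1 matches and 1 ETS match. Cox6a1 had the most, with 2 NRF1 matches, 1 ETS match and 2 SP1 matches, and Atp5g2 had 1 match each for NRF1 and SP1. The start used for Atp5g2 lies 1304 bases inside the deposited gene model. A promoter was found for 35 of the 49 members, and 9 of these (25.7%) held the NRF1 motif, against 6.23% of all 32851 promoters of this length and 11.7% of those of genes tested here. The ETS motif was in 11 members (31.4%), against 8.86% of all promoters and 15.1% of those of tested genes. SP1 matches were in 13 members (37.1%), against 35.7% of all promoters and 59.7% of those of tested genes. The YY1 motif was in 1 member (2.86%), against 2.75% of all promoters and 3.85% of those of tested genes. A match says only that these letters were in the window.

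Most members were abundant transcripts. Of the 45 members that passed the filter on low counts, 36 lay above the 90th percentile of all tested genes in level per length, given here as CPM per kilobase of gene model. In complex II Sdha, the flavoprotein that oxidises succinate, had the highest level per length in NTG mice (100.1 ± 1.53 CPM per kb, SD, n = 4) and Sdhc, a membrane anchor, the lowest (20.4 ± 0.625). Cyc1, cytochrome c1, led complex III (118 ± 2.46), and the small subunits Uqcr11 (114 ± 8.92), Uqcr10 (112 ± 12.5) and Uqcrh (110.2 ± 21.1) came next, with levels that did not differ from it beyond their SDs. The leading member of complex IV and of the whole set was Cox8a, a small subunit of cytochrome c oxidase, at 528 ± 15.3 CPM per kb. In complex V the alpha and beta subunits of the catalytic ring, Atp5a1 (274 ± 5.83) and Atp5b (255 ± 7.13), were far above the next members, Atp5k (104 ± 9.45) and Atp5c1 (103 ± 9.78). Cycs had 13.6 ± 1.32 CPM per kb.

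**Figure D1:**
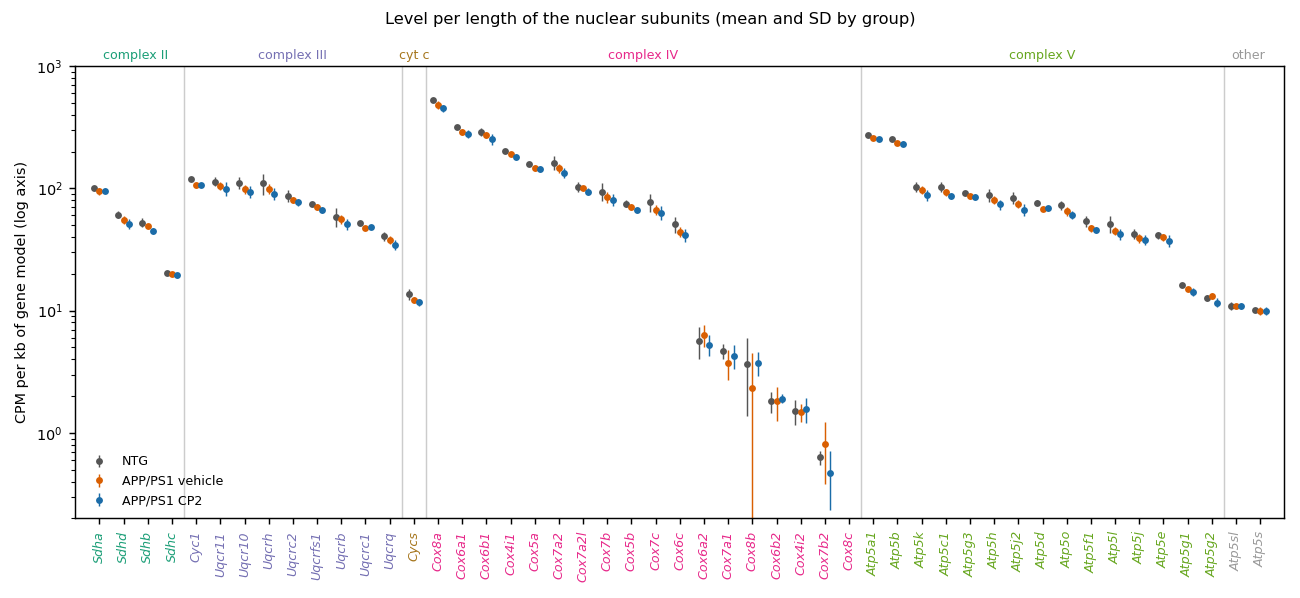
Level per length of the 49 members on a log axis, with points and bars giving the mean and SD of each group (4 NTG, 5 vehicle-treated and 5 CP2-treated APP/PS1 mice). In NTG mice the common subunits sit between 12.7 (Atp5g2) and 528 CPM per kb (Cox8a) and the tissue-restricted isoforms of complex IV at or below 5.68, while Cox8c, with counts in 1 mouse, falls under the axis.

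Where complex IV has 2 or 3 genes for the same subunit, 1 of them took nearly all the transcript. Per length, Cox4i1 made up 99.3% ± 0.161 (SD, n = 4) of its family in NTG mice, Cox6a1 98.2% ± 0.52, Cox6b1 99.4% ± 0.0972, Cox7a2 97.2% ± 0.17 of the pair with Cox7a1, Cox7b 99.3% ± 0.185 and Cox8a 99.3% ± 0.422. The partners were Cox4i2, the heart and muscle isoforms Cox6a2, Cox7a1 and Cox8b, and the testis isoforms Cox6b2, Cox7b2 and Cox8c. In CP2-treated mice the main genes held between 96.9% (Cox7a2) and 99.4% (Cox7b) of their families, and the ranges of the 3 groups overlapped in each. Cox4i2, Cox8b and Cox7b2 had mean levels of 1.19, 1.17 and 0.346 CPM and were not tested, and Cox8c had 2 counts in mouse 21 and 0 in the other 13 mice. Markers of striated muscle were also scarce, with 4 genes summing to 4.51 to 6.34 CPM. The c subunit, which forms the rotating ring of complex V, was shared by 3 genes that encode the same mature protein. Atp5g3 held 76.1% ± 0.518 of their summed level per length in NTG mice, Atp5g1 13.4% ± 0.479 and Atp5g2 10.5% ± 0.573.

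In APP/PS1 against NTG mice, 41 of the 45 tested members had the lower mean in APP/PS1 mice, against 51.2% of all 16417 genes tested. The median log2 fold change over members was -0.12, beside -0.0042 over all genes. In edgeR's quasi-likelihood test 9 members were lower with an unadjusted p under 0.05, where 8.05% of all genes were, and 0 members were higher, where 10.6% of all genes were. After Benjamini-Hochberg adjustment over all genes 0 members passed 0.05, while 1.34% of genes passed on the lower side. DESeq2, the tool of the study, gave 14 members lower with an unadjusted p under 0.05, where 8.99% of all genes were, and 4 with an adjusted p under 0.05, where 3.47% were. In 7 members every APP/PS1 mouse lay below every NTG mouse, as in 3.83% of all genes.

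CP2-treated mice had the lower mean against vehicle-treated APP/PS1 mice in 40 of the 45 members, against 52.5% of the 16407 genes tested. The median log2 fold change was -0.083, beside -0.006 over all genes. Atp5g2 and Sdhb were the 2 members with an unadjusted p under 0.05 in edgeR on the lower side, where 3.66% of all genes were, and 0 members were on the higher side, where 2.88% of genes were. After adjustment 0 members passed in edgeR, which called 1 gene lower in all (0.00609% of those tested), and 0 passed in DESeq2, which gave 2 members lower with an unadjusted p under 0.05, where 4.1% of all genes were. The 2 groups overlapped in every member (0 of 45 apart, against 0.616% of all genes on the lower side).

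CP2-treated APP/PS1 mice were below NTG mice on average in 44 of 45 members, against 50.6% of the 16416 genes tested. An unadjusted p under 0.05 in edgeR was reached by 31 members on the lower side, where 8.59% of all genes were, and by 0 on the higher side, where 11.6% were. The median log2 fold change was -0.18, beside -0.0015 over all genes. Cox8a and Cyc1 passed adjustment, as 1.46% of genes did on the lower side, and in DESeq2 18 members did, as 3.63% of genes did there. In 10 members the groups did not overlap, as in 3.3% of all genes. The 3 comparisons share mice, so their results are not independent of each other. Group means followed the order NTG, vehicle-treated, CP2-treated from high to low in 37 of 45 members. How many of all tested genes followed this order was not counted.

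**Figure D2:**
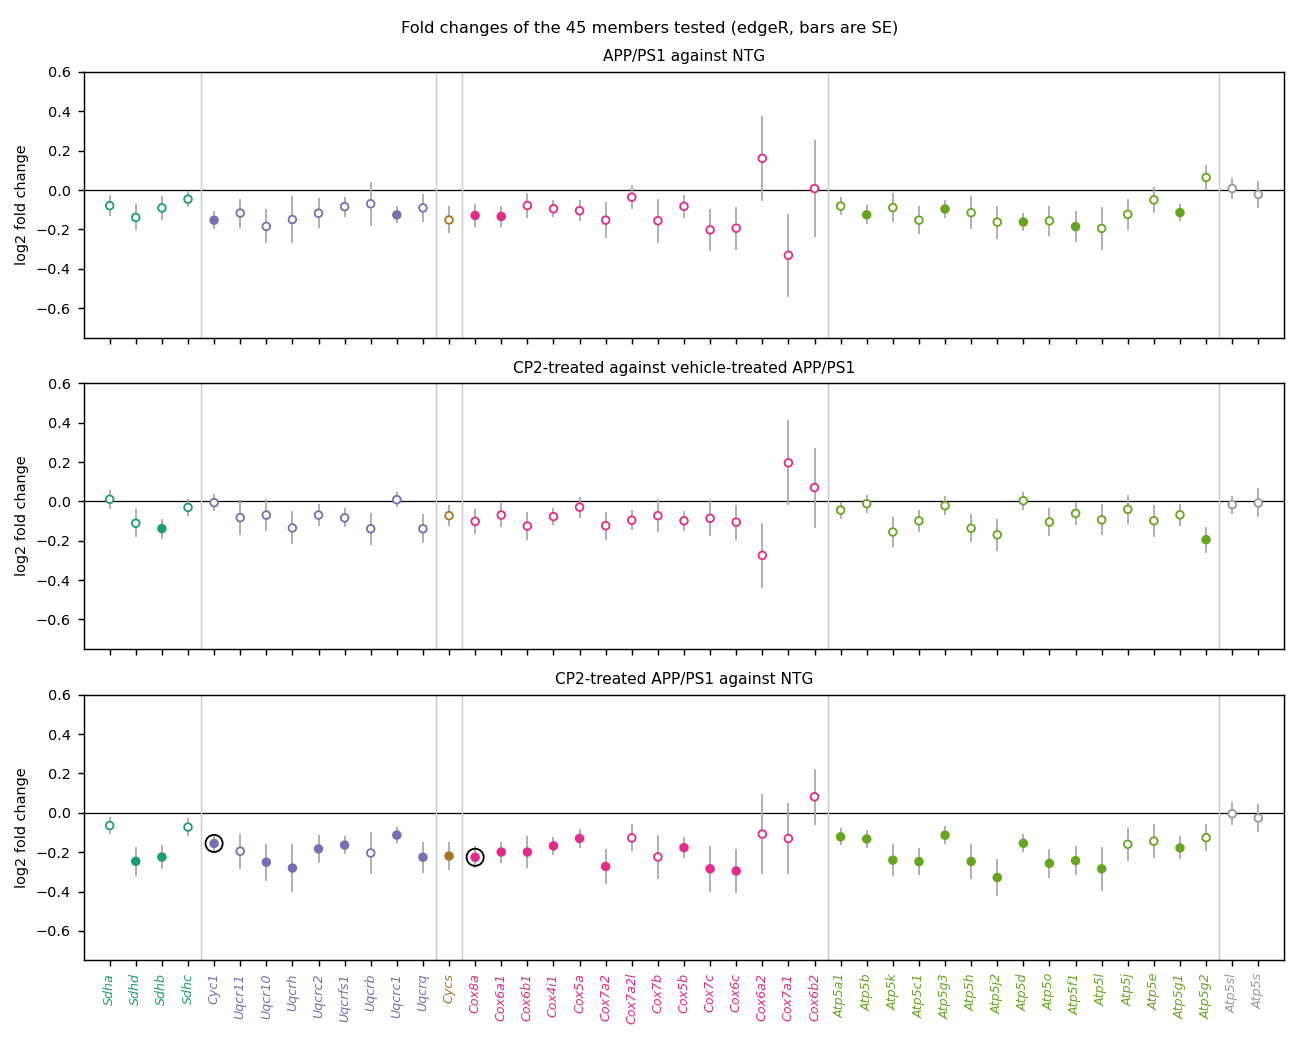
Log2 fold changes with SE (edgeR) of the 45 tested members in the 3 comparisons, ordered by complex. Filled points have an unadjusted p under 0.05 and circled points an adjusted p under 0.05: nearly all points lie below 0, and the circles are on Cyc1 and Cox8a in the comparison of CP2-treated APP/PS1 with NTG mice.

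By complex, the median log2 fold changes in APP/PS1 against NTG mice were -0.085 in complex II and -0.12 in each of complexes III, IV and V. Under CP2 against vehicle they were -0.071, -0.083, -0.091 and -0.094 in the order of the complexes, and in CP2-treated APP/PS1 against NTG mice they were -0.15, -0.20, -0.19 and -0.18. The complexes thus lay close together in each comparison, and differences between them were not tested. Atp5s and Atp5sl, named like complex V, lay at -0.022 and 0.0075 in APP/PS1 against NTG mice, and at -0.026 and -0.0046 in CP2-treated APP/PS1 against NTG mice.

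In complex II, Sdhb, the iron-sulfur subunit (chr4:140961203-140979193), had 129.9, 120.4, 114 and 106.0 CPM in NTG mice. Vehicle-treated APP/PS1 mice had 112, 118, 109.9, 107 and 105 CPM, and those given CP2 99.8, 102, 109.8, 97.2 and 94.3 CPM. Every CP2-treated mouse was below the mean of vehicle-treated mice, and mouse 23 alone lay within their range. The log2 fold change (± SE, edgeR, here and below) was -0.14 ± 0.051, adjusted p = 0.744 for CP2 against vehicle and -0.22 ± 0.063, adjusted p = 0.0631 for CP2-treated APP/PS1 against NTG mice. Sdhd, a membrane anchor, had 84.5, 80.4, 73 and 75.1 CPM in NTG mice and 66.9, 73.2, 76.3, 74.6 and 64.2 CPM in vehicle-treated mice. With CP2 it had 68.6, 72.8, 68.6, 63.2 and 56.6 CPM, below every NTG mouse (-0.25 ± 0.073, adjusted p = 0.0771). The other anchor, Sdhc, had -0.073 ± 0.047, adjusted p = 0.435 in the same comparison.

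Sdha had 392, 389, 379.9 and 392 CPM in NTG, 333, 363, 395, 377 and 370.1 CPM in vehicle-treated and 368, 371, 396, 371 and 351 CPM in CP2-treated mice. The lowest value was that of mouse 16, and the 3 groups overlapped. Its log2 fold changes were -0.079 ± 0.053, adjusted p = 0.482 in APP/PS1 against NTG mice and 0.011 ± 0.05, adjusted p = 0.967 for CP2 against vehicle. Among the 4 subunits of complex II, Sdha was thus the one with the mean of CP2-treated mice above that of vehicle-treated mice, by less than its SE.

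In complex III, Cyc1 (chr15:76343523-76345934) separated both APP/PS1 groups from NTG mice. NTG mice had 144, 143, 137 and 142 CPM. Among APP/PS1 mice, those on vehicle had 119, 131, 134, 129 and 123 CPM and those on CP2 129, 128, 131, 127 and 118 CPM. No mouse of either APP/PS1 group reached the lowest NTG value. In APP/PS1 against NTG mice the log2 fold change was -0.15 ± 0.045, adjusted p = 0.0875, and in CP2-treated APP/PS1 against NTG mice Cyc1 fell by 10.2% (-0.16 ± 0.039, adjusted p = 0.0425). Both APP/PS1 groups had nearly the same mean, 127 CPM (-0.0062 ± 0.044, adjusted p = 0.978 for CP2 against vehicle). Uqcrc1, a core protein, had 210.2, 221, 208 and 219.7 CPM in NTG mice, and 189, 197, 206, 198 and 193 CPM in vehicle-treated APP/PS1 mice, without overlap (-0.13 ± 0.043, adjusted p = 0.138). Under CP2 it had 196, 193, 211, 201 and 192 CPM, with mouse 23 inside the NTG range (-0.11 ± 0.041, adjusted p = 0.148), and the means on vehicle and CP2 were nearly equal (0.009 ± 0.04, adjusted p = 0.966).

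The 5 small subunits of complex III had a median log2 fold change of -0.13 for CP2 against vehicle and the 4 larger ones -0.038, and in CP2-treated APP/PS1 against NTG mice the medians were -0.23 and -0.16. Both medians were -0.12 in APP/PS1 against NTG mice, and the difference between the classes was not tested. Uqcrh, the hinge protein, spread most between mice, with 169, 145, 122 and 109 CPM in NTG, 115, 126, 131, 133 and 109 CPM in vehicle-treated and 116, 125, 123, 101 and 96.4 CPM in CP2-treated mice. Mouse 7 was far above the rest and mouse 25 the lowest, and the groups overlapped (-0.28 ± 0.12, adjusted p = 0.226, CP2-treated APP/PS1 against NTG). In this comparison Uqcrfs1, the Rieske iron-sulfur protein, had -0.16 ± 0.048, adjusted p = 0.0754, the core protein Uqcrc2 -0.18 ± 0.072, adjusted p = 0.178 and the ubiquinone-binding Uqcrq -0.23 ± 0.079, adjusted p = 0.134. The remaining small subunits Uqcr10, Uqcr11 and Uqcrb lay at -0.25, -0.20 and -0.20. Cycs, which carries electrons on to complex IV, had 50.8, 49.3, 44.1 and 41.1 CPM in NTG, 41.4, 42.3, 44.8, 39.4 and 40.3 CPM in vehicle-treated and 39.5, 42.5, 41.8, 38.1 and 36.8 CPM in CP2-treated mice. Its NTG mice were on average the highest, with mouse 10 inside the range of both other groups (-0.22 ± 0.07, adjusted p = 0.099, CP2-treated APP/PS1 against NTG).

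In complex IV, Cox8a (chr19:7215158-7217616) had the smallest p-value of any member in the 3 comparisons. NTG mice had 287, 297, 289.9 and 277 CPM. On vehicle, APP/PS1 mice had 286, 279, 253, 258 and 241 CPM, and on CP2 248, 264, 263, 233 and 222 CPM. All CP2-treated mice were below the NTG range, whereas mice 16 and 17 of the vehicle-treated group were inside it. Cox8a fell by 14.5% in CP2-treated APP/PS1 against NTG mice (-0.23 ± 0.055, adjusted p = 0.0372), with -0.13 ± 0.058, adjusted p = 0.266 in APP/PS1 against NTG mice and -0.10 ± 0.065, adjusted p = 0.769 for CP2 against vehicle. When single mice were left out of the comparison of CP2-treated APP/PS1 with NTG mice, the adjusted p of Cox8a ran between 0.0275 and 0.11 and that of Cyc1 between 0.0382 and 0.114. Without mouse 7, 8, 9, 21, 24 or 25 the adjusted test called 0 members, without mouse 10 it called 6, where 1.12% of all genes were called lower, and without mouse 23 it called 7, where 1.77% were. In 1 fit over all groups the adjusted p was 0.0511 for Cox8a and 0.0549 for Cyc1, and the 2 members called there, beside 0.999% of all genes on the lower side, were Cox4i1 and Sdhb.

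Cox6a1, the common isoform of its subunit, was tightly grouped in NTG mice, at 228, 223, 221 and 221 CPM. Vehicle-treated mice had 219, 207, 191, 209 and 190.0 CPM and CP2-treated mice 187, 209.8, 209.6, 178 and 186 CPM. Both APP/PS1 groups lay under every NTG mouse and overlapped with each other, with log2 fold changes against NTG of -0.13 ± 0.051, adjusted p = 0.184 and -0.20 ± 0.053, adjusted p = 0.0534. Cox4i1, a regulatory subunit, had 327, 318, 314 and 302 CPM in NTG, 302, 299, 301, 289.7 and 283 CPM in vehicle-treated and 278, 291, 299, 266 and 268 CPM in CP2-treated mice, again with every NTG mouse above all others (-0.095 ± 0.043, adjusted p = 0.268 and -0.17 ± 0.046, adjusted p = 0.0605). Its gene overlaps Emc8 and Gm20388, and a read in the overlap was counted for each. Cox5b, a subunit on the matrix side, also had no overlap between CP2-treated and NTG mice (-0.18 ± 0.053, adjusted p = 0.0834).

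Cox6b1, which joins the monomers of the enzyme, had 161, 149.8, 142 and 133 CPM in NTG, 135, 144, 146, 142 and 126 CPM on vehicle and 135, 137, 137, 120.4 and 108 CPM on CP2. In CP2-treated APP/PS1 against NTG mice it had -0.20 ± 0.079, adjusted p = 0.186. Cox7a2 had 138, 133, 116 and 102, 104, 116, 115, 116 and 98.3 and 99.8, 112, 108, 96.3 and 89.5 CPM in the same groups (-0.27 ± 0.091, adjusted p = 0.119, CP2-treated APP/PS1 against NTG), and Cox7b 135, 125, 104 and 93.6, 96.5, 105.7, 113, 109.6 and 88.3 and 100.5, 108, 105, 93.3 and 81.9 CPM (-0.22 ± 0.11, adjusted p = 0.288, same comparison). In each of the 3, mouse 7 was the highest and mouse 25 the lowest of all mice, and the groups overlapped. The remaining common subunits Cox5a, Cox6c and Cox7c lay at -0.13, -0.30 and -0.28 in CP2-treated APP/PS1 against NTG mice, and Cox7a2l, which takes part in joining complexes III and IV, at -0.13. Of the 11 common subunits 9 had an unadjusted p under 0.05 in that comparison, where 8.59% of all genes were lower at that p. All 11 had the lower mean in each comparison. Of all genes 51.2% did in APP/PS1 against NTG, 52.5% for CP2 against vehicle and 50.6% in CP2-treated APP/PS1 against NTG mice.

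The 3 tissue-restricted isoforms that were tested scattered around 0. Cox6a2 had 2.42, 4.17, 3.38 and 4.98 CPM in NTG, 4.57, 5.32, 3.92, 3.1 and 3.97 CPM on vehicle and 3.36, 3.47, 4.57, 3.2 and 2.74 CPM on CP2. Cox7a1 had 1.95, 1.9, 1.49 and 1.52, 0.869, 1.58, 1.75, 1.52 and 1.08 and 1.89, 1.86, 1.35, 1.65 and 1.06 CPM in these groups. Groups overlapped throughout, and the log2 fold change farthest from 0 was that of Cox7a1 in APP/PS1 against NTG mice (-0.33 ± 0.21, adjusted p = 0.456). Cox7a1 was under 1 CPM in mouse 16, so it passed the filter through NTG mice here and through CP2-treated mice for CP2 against vehicle. Its direction in both comparisons may follow in part from that filter. Cox6b2 had 2.17, 2.48, 1.62 and 1.75, 1.06, 2.55, 2.27, 2.45 and 1.73 and 2.04, 2.3, 1.88, 2.07 and 2.3 CPM. Among the 45 tested members it was the single one with a higher mean in CP2-treated APP/PS1 than in NTG mice, by less than its SE (0.081 ± 0.14, adjusted p = 0.806).

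In complex V, Atp5d, the delta subunit of the central stalk (chr10:80138632-80145818), had the smallest p-value of the members in APP/PS1 against NTG mice. It had 141, 146, 156 and 148 CPM in NTG, 134, 134, 127, 138 and 126 CPM on vehicle and 130.1, 139.8, 138, 130.4 and 124 CPM on CP2. Both APP/PS1 groups lay below all NTG mice and had nearly the same mean. The log2 fold changes against NTG were -0.16 ± 0.046, adjusted p = 0.0743 and -0.15 ± 0.046, adjusted p = 0.0825, and CP2 against vehicle gave 0.0035 ± 0.045, adjusted p = 0.987. The gene model of Atp5d overlaps Dos, and reads in the overlap were counted for both. Atp5a1 had 869, 866, 832 and 871 CPM in NTG, 802, 849, 833, 780.4 and 795 CPM on vehicle and 786, 778, 838, 786 and 761 CPM on CP2, with NTG mouse 9 inside the range of the other groups (-0.082 ± 0.046, adjusted p = 0.39 in APP/PS1 against NTG). Atp5b, the subunit with the catalytic sites, had 1100.5, 1101, 1037 and 1079 CPM in NTG and 958, 1027, 1029, 975 and 956 CPM on vehicle, without overlap (-0.13 ± 0.048, adjusted p = 0.191), and 987, 978, 1046, 976 and 931 CPM on CP2. In Atp5c1, the gamma subunit that turns inside the ring, the CP2-treated mice all lay under the NTG mice (-0.25 ± 0.067, adjusted p = 0.0563), and Atp5e, the epsilon subunit, had -0.14 ± 0.086, adjusted p = 0.387.

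The 10 genes of the membrane part and the peripheral stalk had a median log2 fold change of -0.24 in CP2-treated APP/PS1 against NTG mice and the 5 genes of the catalytic part -0.14. In APP/PS1 against NTG mice these medians were -0.12 and -0.13, and for CP2 against vehicle -0.099 and -0.044. The difference between the parts was not tested. Atp5j2, subunit f, had the lowest log2 fold change of all members in CP2-treated APP/PS1 against NTG mice (-0.33 ± 0.094, adjusted p = 0.07). It had 115, 110.4, 95.8 and 90 CPM in NTG, 89.4, 93, 98.1, 97.2 and 80.6 CPM on vehicle and 86.2, 90.9, 85.6, 79 and 67 CPM on CP2. Mouse 22 lay just within the NTG range and mouse 25 far below the rest. Atp5o, the stalk protein that confers sensitivity to oligomycin, had -0.26 ± 0.072, adjusted p = 0.0635 in the same comparison, and its gene model overlaps 5 other genes with counts. Atp5k, subunit e, had 72.1, 63.4, 60.4 and 59.2 CPM in NTG, 65.1, 61.1, 61.7, 57 and 54.5 CPM on vehicle and 54.9, 59.1, 58.7, 50.6 and 46.5 CPM on CP2. All CP2-treated mice were below the NTG mice (-0.24 ± 0.081, adjusted p = 0.121) and below the mean of vehicle-treated mice (-0.16 ± 0.074, adjusted p = 0.744). The stalk subunits Atp5f1, Atp5h and Atp5j lay at -0.24, -0.25 and -0.16 against NTG, and Atp5l, subunit g, at -0.28.

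The 3 genes of the c subunit had different patterns. Atp5g1 had 77.7, 77.5, 80.1 and 81.9 CPM in NTG, 73.5, 77, 74, 69.7 and 71.8 CPM on vehicle and 74.2, 73.7, 73.2, 68.2 and 61 CPM on CP2, with every NTG mouse above both other groups (-0.11 ± 0.042, adjusted p = 0.168 and -0.18 ± 0.059, adjusted p = 0.112 against NTG). Atp5g3 had 203, 202, 196 and 199.5, 183, 192, 199, 180.3 and 182 and 186, 187, 199, 183 and 171 CPM, with mice 18 and 23 reaching the NTG range (-0.097 ± 0.043, adjusted p = 0.267 and -0.11 ± 0.044, adjusted p = 0.176). Atp5g2 had 22.2, 21.3, 22 and 19.5 CPM in NTG mice, 21.8, 23.6, 22.8, 22.9 and 20.1 CPM on vehicle and 20.2, 21.8, 19.5, 18.3 and 17.7 CPM on CP2. Its mean was the highest on vehicle, and every CP2-treated mouse lay below that mean. The log2 fold changes were 0.064 ± 0.063, adjusted p = 0.665 in APP/PS1 against NTG mice and -0.19 ± 0.066, adjusted p = 0.744 for CP2 against vehicle. Its share of the 3 genes per length was 10.5% ± 0.573 (SD) in NTG, 11.6% ± 0.556 on vehicle and 10.5% ± 0.614 on CP2, and the ranges overlapped. Of the 50-base windows of Atp5g2 transcripts 38.3% also occur in transcripts of 3 other genes, 2 of them pseudogenes, so its count is uncertain where such reads could be placed elsewhere. Such windows made up 41.6% in Atp5o, 26.1% in Cycs and over 10% in 11 of the 49 members, and none in Sdhb, Cyc1, Cox8a and Uqcrc1.

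**Figure D3:**
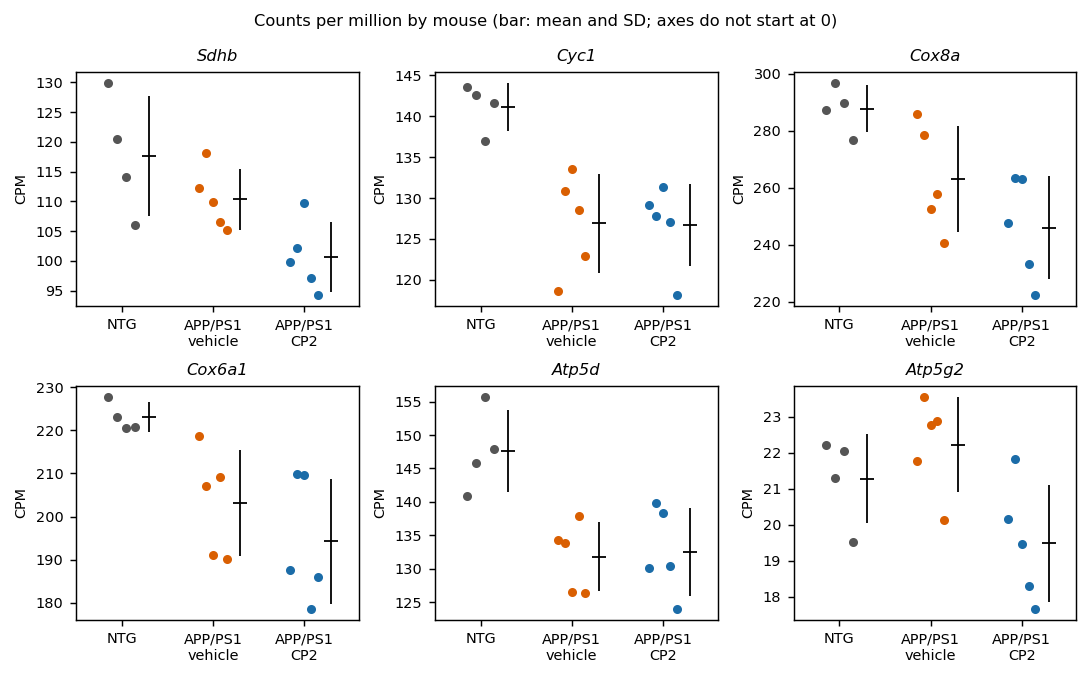
CPM of 6 members in each of the 14 mice (points), with the mean and SD of each group (NTG n = 4, vehicle-treated and CP2-treated APP/PS1 n = 5), on linear axes that do not start at 0. In Cyc1, Cox6a1 and Atp5d both APP/PS1 groups lie under all NTG mice, in Cox8a the CP2-treated mice do, and in Sdhb and Atp5g2 the CP2-treated group has the lowest mean with ranges that overlap.

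Members varied together from mouse to mouse. The first principal component held 63.4% of the variance among mice over all 45 tested members and 83.8% over the 42 with a mean above 10 CPM. Mouse 25 had the lowest level of all 14 mice in 37 of the 45 members, and mouse 7 the highest in 32. The share of all tested genes with such ranks was not taken. As a mean over members of log2 CPM less the NTG mean, NTG mice had 0.10, 0.054, -0.059 and -0.098, vehicle-treated mice -0.16, -0.038, -0.037, -0.084 and -0.22, and CP2-treated mice -0.16, -0.084, -0.089, -0.23 and -0.33. Mouse 10 lay within the range of both APP/PS1 groups and mouse 9 within that of the vehicle-treated mice. The group means were 0, -0.11 and -0.18 with SDs of 0.094, 0.081 and 0.10. Mice 7, 24 and 25 stood at the same ends in other abundant transcripts. On the same scale the nuclear complex I subunits had 0.13 in mouse 7, -0.25 in mouse 24 and -0.33 in mouse 25, and the cytosolic ribosomal proteins 0.15, -0.24 and -0.27, with -0.22 in mouse 10. Mice 16 and 20, at -0.16 and -0.22 over members, had -0.12 and -0.24 in the complex I subunits but 0.026 and -0.044 in the ribosomal proteins. The group means of the ribosomal proteins were 0 in NTG, 0.047 in vehicle-treated and -0.11 in CP2-treated mice. What these gene groups share in each library was not tested. The counts of called members rested on single mice in part. Without mouse 7, mouse 8 or mouse 20, 4 members were lower at an unadjusted p under 0.05 in APP/PS1 against NTG mice, where 7.57%, 6.56% and 7.39% of all genes were. Without mouse 10 or 18 there were 12 such members, where 6.05% and 7.53% of all genes were. For CP2 against vehicle the count was 10 without mouse 20, 8 without mouse 22 and 7 without mouse 23, beside 4.16%, 4.89% and 3.57% of all genes, and the median went from -0.048 without mouse 25 to -0.11 without mouse 20.

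**Figure D4:**
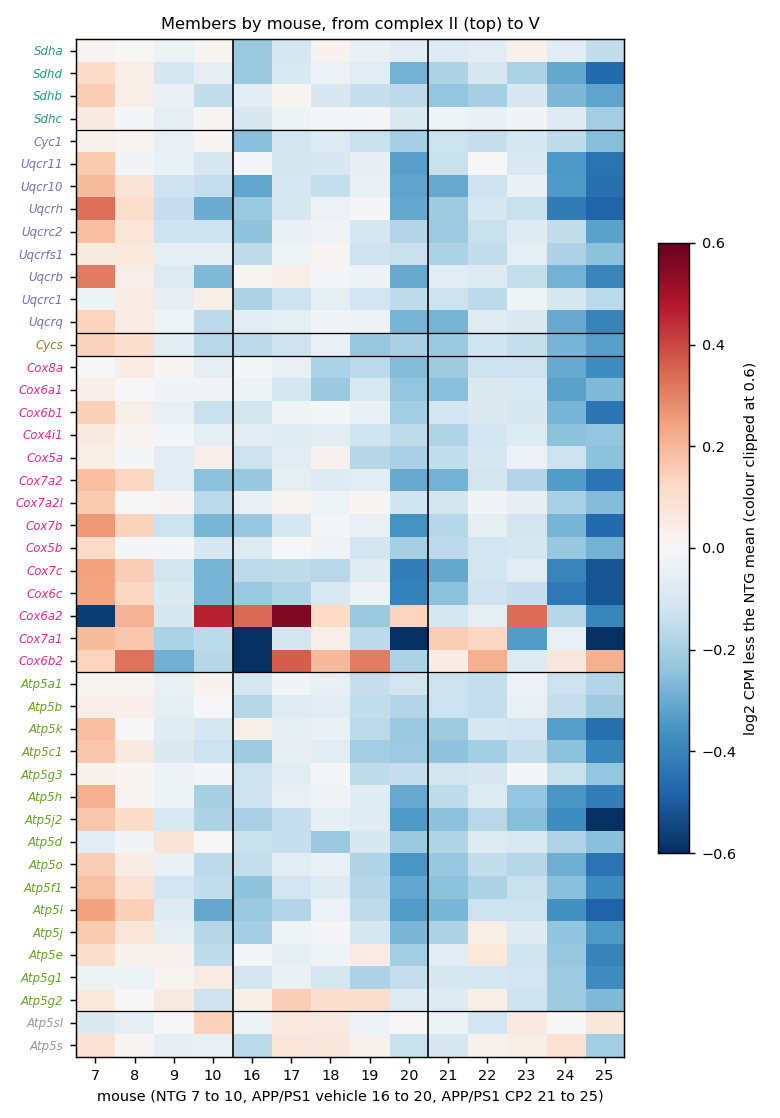
Log2 CPM less the NTG mean of the 45 tested members (by complex) in each mouse (NTG 7 to 10, vehicle-treated APP/PS1 16 to 20, CP2-treated APP/PS1 21 to 25). Mouse 25 is the lowest in 37 members and mouse 7 the highest in 32, across all complexes, while the tissue-restricted isoforms Cox6a2, Cox7a1 and Cox6b2 do not follow the others.

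Members differed in how far they spread over the 14 mice. Among the 42 above 10 CPM, the log2 range was the smallest in Atp5a1 (0.20), Uqcrc1 (0.23), Atp5b (0.24) and Sdha (0.25), catalytic or core subunits with long gene models, and the largest in Uqcrh (0.81), Atp5j2 (0.77), Cox7c and Cox6c (both 0.76). Spearman's rho of gene model length and this range was -0.45 over the 42 members, which share their libraries. Tested members were short, with a median gene model of 1485 bases against 3562 over all tested genes. Other genes of at most 1485 bases had median log2 fold changes of -0.023, -0.054 and -0.058 in the 3 comparisons (APP/PS1 against NTG, CP2 against vehicle, CP2-treated APP/PS1 against NTG), and 55.4%, 66.7% and 65.8% of them were lower. For CP2 against vehicle the members' median of -0.083 thus stood beside -0.054 in other short genes. With libraries scaled within bins of gene length, a step added after these values were seen, the members' medians were -0.11, -0.051 and -0.15.

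Other genes of oxidative phosphorylation were taken from the same fits. The 36 nuclear subunits of complex I, the target of CP2, had the lower mean in 34, 34 and 36 cases in the 3 comparisons. Their medians were -0.094, -0.097 and -0.18, and 7, 2 and 23 of them were lower at an unadjusted p under 0.05. Of all genes 51.2%, 52.5% and 50.6% had the lower mean, and 8.05%, 3.66% and 8.59% were lower at that p. Ndufb10, an accessory subunit, fell in CP2-treated APP/PS1 against NTG mice (-0.20 ± 0.05, adjusted p = 0.0406). Of 38 listed assembly factors of complexes II to V 36 were tested, and 28, 23 and 28 were lower, with medians of -0.068, -0.024 and -0.095. Tmem70, needed to assemble complex V, fell in APP/PS1 against NTG mice (-0.40 ± 0.077, adjusted p = 0.0133). Sdhaf1, which helps to place iron-sulfur clusters in the Sdhb protein, fell in CP2-treated APP/PS1 against NTG mice (-0.29 ± 0.064, adjusted p = 0.024), and for CP2 against vehicle it had -0.25 ± 0.081 (adjusted p = 0.744). The further proteins of complexes IV and V, Ndufa4, Atpif1, Usmg5 and 2010107E04Rik, had the lower mean in each comparison. At an unadjusted p under 0.05 there were 0, 0 and 2 of them, beside the shares of all genes given above.

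Markers of other cell types moved between the groups as well. All 10 microglia markers were higher in APP/PS1 than in NTG mice with an adjusted p under 0.05 (edgeR), where 712 of all 16417 genes were. Their summed level spanned 426 to 448 CPM in NTG, 835 to 1270.5 CPM on vehicle and 734 to 1060.2 CPM on CP2. The 10 neuronal markers summed to 6046 to 6864, 5714 to 6841 and 5932 to 6777 CPM in these groups. An unadjusted p under 0.05 on the lower side was reached by 1 of them in APP/PS1 against NTG mice, 0 for CP2 against vehicle and 3 in CP2-treated APP/PS1 against NTG mice. Of all genes 8.05%, 3.66% and 8.59% reached it. The 5 markers of parvalbumin interneurons summed to 589 to 654 CPM in NTG mice, 501 to 549 on vehicle and 543 to 579 on CP2, so that both APP/PS1 groups lay below all NTG mice in this sum. Single markers of that list were lower in 4, 2 and 4 of 5 cases in the 3 comparisons, and 0 passed adjustment. Tac1 of this list had 0.92 ± 0.67 in APP/PS1 against NTG mice and -1.05 ± 0.61 for CP2 against vehicle. The 8 striatal markers had medians of 1.82 and -1.48 there, and which cells the Tac1 counts came from was not tested. The 7 markers of mural cells, which wrap small vessels, summed to 96.3 to 118 CPM in NTG mice, 118 to 210.2 on vehicle and 150.03 to 199.8 on CP2. All 7 had the higher mean in APP/PS1 against NTG mice, 5 at an unadjusted p under 0.05, where 10.6% of all genes were higher, and 0 past adjustment. In CP2-treated APP/PS1 against NTG mice 5 rose (adjusted p under 0.05, edgeR), where 749 of all 16416 genes did. For CP2 against vehicle 0 reached an unadjusted p under 0.05. For 7 thalamic markers the sums were 438 to 649, 178 to 488 and 435 to 652 CPM. All 7 had a lower mean in APP/PS1 than in NTG mice and a higher one on CP2 than on vehicle, with 0 past adjustment. Mouse 16, the one with the high striatal sum, lay farthest down in the thalamic markers. As a mean of log2 CPM less the NTG mean it had -1.66, and the other vehicle-treated mice -0.48 to -0.11. Endothelial markers (6 genes, 137 to 144, 128 to 196 and 147 to 172 CPM) and blood markers (5 genes, 82.5 to 151, 113 to 472 and 136 to 443 CPM) also reached their highest sums in the APP/PS1 groups. For 6 astrocyte markers the sums were 5230 to 5664, 5280 to 7258 and 5463 to 6671 CPM. In APP/PS1 against NTG mice 3 were higher, as Gfap (2.3 ± 0.25, adjusted p = 0.000649), and 3 lower, as Slc1a2 (-0.41 ± 0.10, adjusted p = 0.0442). Oligodendrocyte markers (6 genes) summed to 5150 to 7529, 4584 to 7010 and 5399 to 6127 CPM. Choroid plexus markers (5 genes) spread widely, at 21.2 to 952, 26.6 to 1348 and 188 to 746 CPM. No marker of these lists was at 0 counts in all mice. Fewer cells of a type and less RNA per cell cannot be told apart in bulk tissue, and the part of cell composition in the members' levels was not tested. The ribosomal RNA-like genes Yam1 and AY036118 took 2.4% to 7.5% of counts. With this share as a covariate, chosen after seeing the data, 5, 0 and 30 members were lower at an unadjusted p under 0.05 in the 3 comparisons, beside 4.95%, 2.51% and 7.79% of all genes, and 0 passed adjustment in any. The members' median in APP/PS1 against NTG mice was -0.138 with the covariate and -0.117 without it. The share averaged 5.65% in NTG, 3.82% in vehicle-treated and 5.24% in CP2-treated mice, so this fit cannot fully separate it from the group.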

How the data were processed

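Per the labels and the study's methods, TruSeq libraries were aligned by the authors to mm10 with TopHat, and featureCounts assigned reads to Ensembl genes, a read counting for every gene that it touched. The strand setting is not given in the sources used here. The deposited table holds raw counts, used here, and RPKM from the authors, left aside. Members and lists were chosen with earlier results of these data known. For each comparison, genes above 1 CPM in all mice of a group were tested with edgeR 4.0.16 in R 4.3.3 (TMM factors, quasi-likelihood test, Benjamini-Hochberg adjustment), in place of the DESeq2 of the study. Standard errors are those implied by the F statistic. Each library is 1 mouse, and p-values measure the spread between mice; all 26 pairs within groups differed beyond sampling noise (chi-square per degree of freedom at least 9.87). Log2 CPM per mouse used a prior count of 2. Promoters came from RefSeq and shared windows from GENCODE transcripts, both GRCm38. The fit was tested on simulated data. Alternatives were DESeq2 1.42.0, RLE and upper-quartile factors, no filter, a minimum of 10 counts, 1 fit over all groups, limma-voom (limma 3.58.1) and leaving out each mouse, and, added after seeing the data, the ribosomal RNA-like share as covariate and scaling within 20 bins of length. Members were chosen by rule if they had an adjusted p under 0.05, were among the 3 smallest p in each direction of each comparison, had the highest level of their complex or belonged to the isoform families. Values by mouse are given for these except Atp5sl, Cox7a2l, Cox4i2, Cox8b and Cox7b2, which are only summarised. Further members were named, some with values by mouse, after their values were seen. Marker genes are named where they had the smallest p of a list.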

Additional observations from a re-analysis of the deposited data

Results flagged for a closer look

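Dixon's test was applied to 87 groups of 4 or 5 mice, and 1 mouse stood apart from its group. The test covered the members chosen by rule other than Cox8c, and the means over all members and by complex. Atp5a1, the alpha subunit of complex V, had 832 CPM in NTG mouse 9, below the other NTG mice at 866 to 871 CPM (ratio of gap to range 0.868). Chance gives such a result in about 1 of 20 groups.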

How the results depend on the processing

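The medians over members kept their sign under every alternative. In APP/PS1 against NTG mice 14 members were lower at an unadjusted p under 0.05 with DESeq2, 14 of 48 without a filter and 5 with the ribosomal RNA-like share as covariate, against 9. Of all genes 8.99%, 5.55% and 4.95% were lower in these fits, against 8.05%. The adjusted test called 4 with DESeq2, 1 with limma-voom, 2 (Cyc1 and Atp5d) with all groups in 1 fit and 1 with length offsets, against 0. Of all genes 3.47%, 2.77%, 2.46% and 1.6% were called lower there, against 1.34%. For CP2 against vehicle the covariate left 0 members at an unadjusted p under 0.05, against 2, where 2.51% of all genes were lower, against 3.66%. In CP2-treated APP/PS1 against NTG mice the adjusted test called 18 with DESeq2, 5 with limma-voom, 4 with length offsets, 1 of 49 without a filter, 1 of 48 with a minimum of 10 counts and 0 with the covariate, against 2. Of all genes 3.63%, 2.14%, 1.61%, 0.555%, 1.1% and 1.01% were called lower in these fits, against 1.46%. The covariate and the length offsets were chosen after seeing the data, and the cause of these changes was not tested. With single mice left out, the unadjusted counts ran from 4 to 12, from 2 to 10 and from 21 to 38 in the 3 comparisons, and the adjusted counts from 0 to 0, from 0 to 0 and from 0 to 7. In these fits 6.05% to 9.43%, 1.99% to 5.29% and 6.69% to 10.8% of all genes were lower at an unadjusted p under 0.05. At an adjusted p under 0.05 the shares were 0.661% to 2.3%, 0% to 0.00609% and 0.656% to 1.86%.

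Sign changes were examined only for the members chosen by rule. Those that changed sign were mostly close to 0, while Cox6a2 was at 0.16 in APP/PS1 against NTG mice in the main fit. In APP/PS1 against NTG mice, log2 fold changes became -0.0039 (Atp5sl) and -0.00439 (Cox6b2) without a filter, and -0.018 (Atp5sl) and -0.019 (Cox6a2) with the covariate. For CP2 against vehicle they became -1.01347e-05 (Atp5d) with upper-quartile factors; -0.024 (Cox6b2), -0.010 (Sdha) and -0.0015 (Uqcrc1) with limma-voom; -0.053 (Sdha) and -0.021 (Uqcrc1) with the covariate; and 0.0040 (Atp5sl) and 0.042 (Cyc1) with length offsets. In CP2-treated APP/PS1 against NTG mice Atp5sl became 0.00125 with length offsets. Leaving out single mice gave ranges across 0 in APP/PS1 against NTG mice for Atp5sl (-0.020 to 0.069), Cox6b2 (-0.096 to 0.17) and Cox7a2l (-0.075 to 0.019). For CP2 against vehicle these were Atp5d (-0.016 to 0.023), Atp5g3 (-0.048 to 0.0028), Atp5sl (-0.037 to 0.011), Cox6b2 (-0.087 to 0.17), Cyc1 (-0.026 to 0.015), Sdha (-0.019 to 0.037) and Uqcrc1 (-0.013 to 0.026). In CP2-treated APP/PS1 against NTG mice they were Atp5sl (-0.033 to 0.031), Cox6a2 (-0.27 to 0.052) and Cox6b2 (-0.0084 to 0.20). No paired analysis was possible because the groups share no replicate numbers. Each of the 42 members above 10 CPM had at least 1015 counts in every mouse, so the spread between mice limits these values more than depth.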
